A study of Mus musculus with 6 samples.

Results

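The genes described here were 45 components of the sarcomere, the contractile unit of striated muscle: the troponins, tropomyosins, myosin light chains and myosin-binding proteins, the M-band and Z-disc proteins, the giant proteins titin and nebulin, and the proteins at the ends of the thin filament. They were found by gene symbol among the 24421 genes of the deposited count files, and all 45 were present and passed the filter on low counts. RNA-Seq had been performed on gastrocnemius/plantaris (GP) muscle of 5-month-old male mice labelled as B6C3F1, 3 months after tamoxifen. The comparison set 3 Cre-negative mice carrying the floxed Net39 allele (Net39 fl/fl, labelled Ctrl) against 3 mice with the same allele and the HSA-CreERT2 transgene (labelled cKO), in which tamoxifen-activated Cre, driven by the human skeletal actin promoter, is meant to remove exon 1 of Net39 from skeletal muscle fibers but not from satellite cells or heart. The floxed allele was made in B6C3F1 zygotes, and the founders were bred to C57BL/6N mice before the cross to the transgene. Both groups were thus floxed and had received tamoxifen, and no Cre-positive group with an intact Net39 gene was among the libraries.

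The targeted gene went against the labels. Net39, listed under its older symbol Ppapdc3, had 310, 321 and 217 counts in labelled Ctrl 1, 2 and 3, but 5365, 4340 and 6080 counts in labelled cKO 1, 2 and 3. The study reports reduced Net39 mRNA in cKO muscle by RNA-Seq, the opposite of these counts as labelled. The deposited counts are per gene, so they do not separate exon 1 from the rest. The groups are therefore called labelled Ctrl and labelled cKO throughout, every direction below is that of the labels, and log2 fold changes are those of labelled cKO relative to labelled Ctrl. Counts per library summed to 33860001 to 48839910. Levels are CPM, the counts of a gene per 1000000 counts of its library, after scaling by edgeR's TMM factors, which were 1.08 to 1.11 for the libraries labelled Ctrl and 0.865 to 0.983 for those labelled cKO. Dividing by total counts alone moved the median log2 fold change of the 14180 genes tested from -0.02 to -0.27 and that of the 45 sarcomere genes from -0.05 to -0.32. Since these are bulk libraries, fewer fibers of a type and less RNA per fiber cannot be told apart.

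In the sarcomere, thick filaments of myosin slide along thin filaments of actin. Calcium binding to troponin C relieves the block by troponin I, troponin T anchors the complex, and tropomyosin moves along actin to expose the sites that myosin binds. Myosin carries regulatory and essential light chains, and myosin-binding protein C tunes its cross-bridges. Thin filaments are anchored at the Z-disc and thick filaments at the M-band, while titin spans from one to the other and nebulin runs along the thin filament. Many of these proteins come in a slow form, used in slow-twitch (type I) fibers together with the slow myosin heavy chain Myh7, and a fast form, used in fast-twitch fibers. Mouse gastrocnemius and plantaris are mostly fast.

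The slow and the fast isoforms had log2 fold changes of opposite sign. Of 8 slow isoforms (Tnni1, Tnnt1, Tnnc1, Tpm3, Myl2, Myl3, Myl6b and Mybpc1), every one had a negative log2 fold change, with a median of -2.15, and 4 passed the test (where 11.8% of all genes tested passed as higher in the libraries labelled Ctrl). Of 7 fast isoforms (Tnni2, Tnnt3, Tnnc2, Tpm1, Myl1, Mylpf and Mybpc2), every one had a positive one, with a median of 0.66, and 6 passed (where 12.6% of all genes tested passed as higher in the libraries labelled cKO). The median over all 45 was -0.05, next to -0.015 over all genes tested. The other 30 genes had a median of -0.02. Of these, Ablim1, Myom3 and Lmod2 had log2 fold changes of -2.97, -2.45 and -1.66.

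At a fold change over 2 and an adjusted p under 0.05 in edgeR's quasi-likelihood test, 3 of the 45 genes reached a higher level in libraries labelled cKO (6.67%, where 2.13% of all genes tested were called that way): Tpm1, Mybpc2 and Cmya5. A further 6 were higher in the libraries labelled Ctrl (13.3%, against 3.92% of all genes tested): Ablim1, Tnnt1, Myl2, Myom3, Lmod2 and Myl6b. Without the fold change limit, 11 passed the test as higher in the libraries labelled cKO (24.4%, against 12.6% of all genes tested) and 13 as higher in those labelled Ctrl (28.9%, against 11.8%), and 21 did not pass. With division by total counts these became 9 and 17, while the shares of all genes tested became 4.75% and 28.7%. The CPM of the groups did not overlap for 30 of the 45 (66.7%), where 43.9% of all genes tested did not overlap. The counts without the fold change limit depended on the libraries used. They were 4 and 9 with labelled cKO 3 left out, 5 and 8 without labelled cKO 1, 5 and 6 without labelled Ctrl 2 and 6 and 6 without labelled Ctrl 1, but 11 and 10 without labelled Ctrl 3 and 14 and 15 without labelled cKO 2. Over all genes tested, between 5.33% and 6.57% passed in either direction in each of the first 4 of these fits, and between 10.6% and 12.5% in the last 2. Of the 24 genes that passed, 9 did so in all 6 fits that left out 1 library (Tpm1, Myl6b, Myom3, Pdlim7, Ablim1, Lmod2, Lmod3, Tmod4 and Cmya5), and 15 did not pass in at least 1 of them. The 9 are 37.5% of the 24, close to the 37.6% of all genes past the test that passed in all 6.

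**Figure D1:**
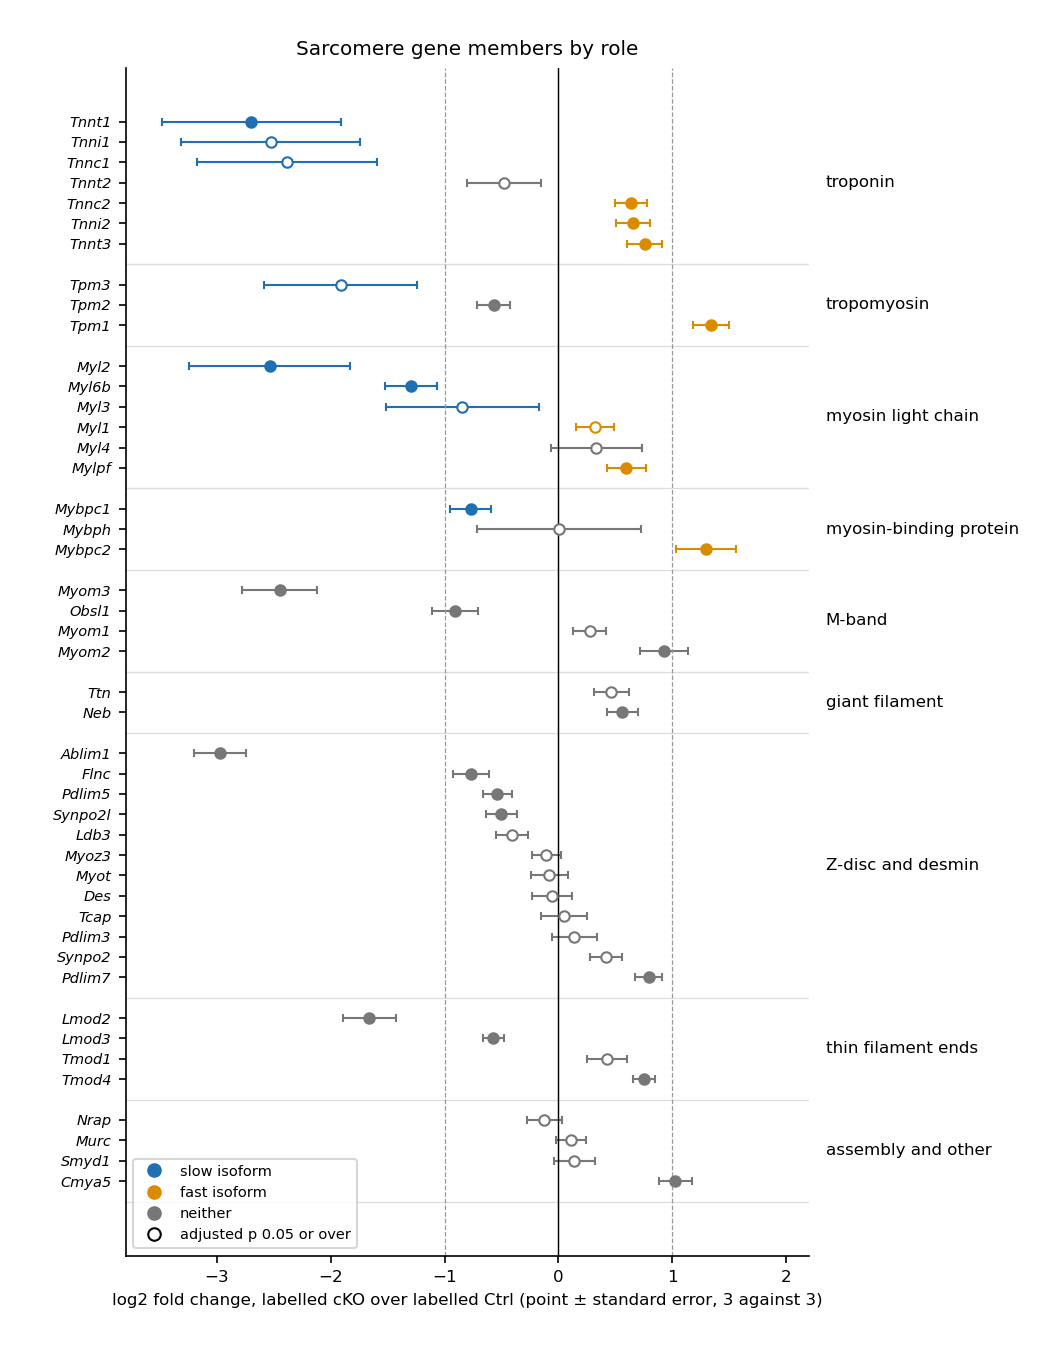
Log2 fold change of each of the 45 sarcomere genes (labelled cKO relative to labelled Ctrl) on the x axis (points, with the standard error as bars, 3 libraries against 3), grouped by role on the y axis, blue for slow and orange for fast isoforms, grey for neither, and filled where the adjusted p was under 0.05. Slow isoforms lie left of 0, most of them with wide bars, fast isoforms lie right of 0, and Ablim1 at -2.97, Myom3 at -2.45 and Lmod2 at -1.66 stand apart from the other grey points.

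Together the 45 genes took a fair part of each library, 11.8%, 12.0% and 12.2% of all counts in labelled Ctrl 1, 2 and 3 and 13.4%, 12.7% and 13.5% in labelled cKO 1, 2 and 3. Shares of the groups did not overlap (p of an exact two-sided permutation test = 0.1, the smallest that 3 against 3 allows). The libraries within a group were not alike for all genes, as the heat map of the values by library shows. Labelled cKO 3 held the lowest level of every slow troponin, tropomyosin and light chain, and labelled cKO 2 the highest of its group.

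**Figure D2:**
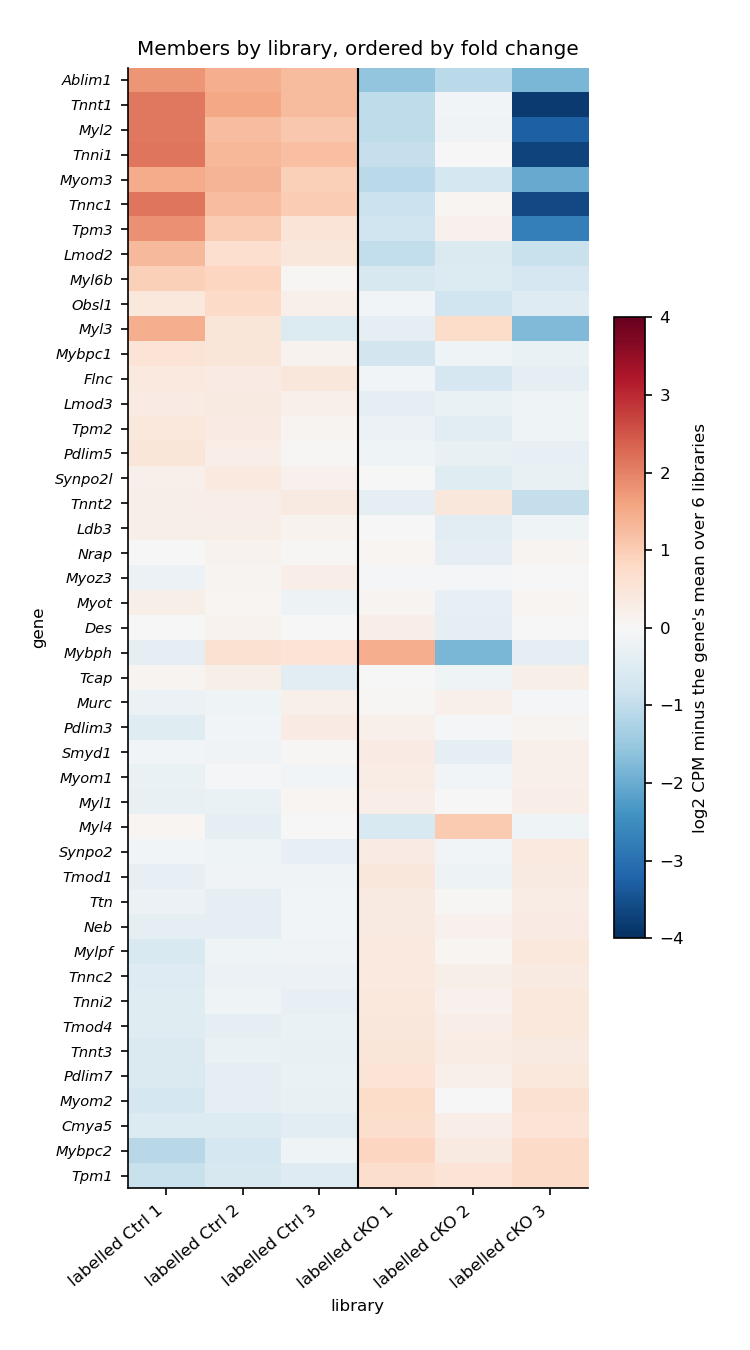
Log2 CPM of each gene (rows, ordered by fold change) in each of the 6 libraries (columns), less the gene's mean over the 6, from blue (lower) to red (higher). The slow isoforms Tnnt1, Myl2, Tnni1, Tnnc1 and Tpm3 in the upper rows range from pale in labelled cKO 2 to dark blue in labelled cKO 3. The slow isoforms Myl6b and Mybpc1 do not show this range. Ablim1, Myom3 and Lmod2 are blue in all 3 libraries labelled cKO. Mybph, in the middle rows, has its highest and its lowest level within the group labelled cKO.

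Sequence upstream of 3 of these genes is shown because it carries motifs of muscle promoters near the start site in 1 slow isoform, 1 fast isoform and 1 M-band gene. The windows are 250 bases before the RefSeq start site, read 5′ to 3′ on the gene's strand (GRCm38.p6, the assembly also called mm10), and these 3 were picked after their values were seen. Tnnc1 lies on the plus strand with its window at chr14:31208062-31208311, Mybpc2 on the minus strand at chr7:44524670-44524919, and Myom3 on the plus strand at chr4:135759465-135759714. Capitals mark an MCAT motif, the element bound by TEAD factors (CATTCC or its reverse complement), in Tnnc1 and Mybpc2, and a match to the element bound by MEF2 factors in Myom3.
Tnnc1: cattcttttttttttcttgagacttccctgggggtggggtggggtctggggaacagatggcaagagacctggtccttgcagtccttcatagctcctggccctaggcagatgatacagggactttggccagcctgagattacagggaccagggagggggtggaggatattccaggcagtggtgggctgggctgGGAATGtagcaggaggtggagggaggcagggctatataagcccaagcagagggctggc
Mybpc2: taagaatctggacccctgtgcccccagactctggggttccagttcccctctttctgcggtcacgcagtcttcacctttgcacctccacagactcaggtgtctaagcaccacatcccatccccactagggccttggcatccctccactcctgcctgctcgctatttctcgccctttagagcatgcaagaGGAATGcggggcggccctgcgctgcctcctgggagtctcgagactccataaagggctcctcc
Myom3: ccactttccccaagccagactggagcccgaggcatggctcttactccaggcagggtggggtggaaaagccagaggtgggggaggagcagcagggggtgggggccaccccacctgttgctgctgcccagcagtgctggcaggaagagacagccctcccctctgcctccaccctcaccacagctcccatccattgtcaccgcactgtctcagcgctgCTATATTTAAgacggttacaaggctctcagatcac
The MCAT motif stood 58 to 53 bases before the start in Tnnc1 and 62 to 57 bases before it in Mybpc2, whose log2 fold changes were -2.38 (not past the test) and 1.30, and the MEF2 match stood 35 to 26 bases before the start in Myom3. RefSeq windows were found for 37 of the 45 genes (49 windows). On either strand, the MCAT motif was in 11 of the 49 (22.4%, against 12.6% of all promoter windows), the MEF2 element in 5 (10.2%, against 2.92%), the serum response element CArG in 4 (8.16%, against 1.47%) and the E-box CANNTG in 38 (77.6%, against 66.2%). Overlapping windows of 1 gene were counted apart. The CArG windows came from 3 genes, with the same Ldb3 site counted in more than 1 window. A match is a description of the letters only, and motifs were not set apart from one another where they overlapped.

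Among the troponins, every slow gene had a lower level in each library labelled cKO than in any labelled Ctrl, past the test for Tnnt1 alone, and each fast gene passed it with the opposite sign. Slow skeletal troponin I, Tnni1 (chr1:135779434-135810989, plus strand), had 669, 378 and 347 CPM in labelled Ctrl 1, 2 and 3, against 79.3, 151 and 11.5 CPM in labelled cKO 1, 2 and 3. Slow troponin T, Tnnt1 (chr7:4504570-4516382, minus strand), had 1461, 975 and 813 CPM against 167, 310.0 and 23.9 CPM in the same order. Slow troponin C, Tnnc1 (chr14:31208312-31211729, plus strand), had 794, 428 and 365 CPM against 98.9, 190.3 and 14.9 CPM. In all 3 genes the groups did not overlap, and within the libraries labelled cKO the level of the second was 13.1, 13.0 and 12.7 times that of the third. With this spread, Tnnt1 passed the test (log2 fold change -2.70 ± 0.79 SE, adjusted p = 0.0450), whereas Tnni1 (-2.53 ± 0.79 SE, adjusted p = 0.0557) and Tnnc1 (-2.38 ± 0.79 SE, adjusted p = 0.0671) did not. The call of Tnnt1 was lost with any library labelled Ctrl or with labelled cKO 1 left out (adjusted p 0.0642 to 0.128). Leaving out 1 library moved the log2 fold change of Tnnt1 between -3.53 and -2.20. Without labelled cKO 3, Tnni1 and Tnnc1 passed too (adjusted p = 0.0321 and 0.0452), at log2 fold changes of -2.03 and -1.89. Without labelled cKO 2 both passed as well (adjusted p = 0.0317 and 0.0361), at log2 fold changes of -3.38 and -3.24.

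The fast troponins differed in the other direction and by less. Fast troponin I, Tnni2, had 4585, 5757 and 5195 CPM in labelled Ctrl 1, 2 and 3, against 8629, 7242 and 8645 CPM in labelled cKO 1, 2 and 3 (log2 fold change 0.66 ± 0.15 SE, adjusted p = 0.0199). Fast troponin T, Tnnt3, had 9734, 11978 and 11855 CPM against 20283, 17807 and 18734 CPM (0.76 ± 0.15 SE, adjusted p = 0.0147). Fast troponin C, Tnnc2, had 5691, 6896 and 6948 CPM against 10528, 9517 and 10473 CPM (0.64 ± 0.14 SE, adjusted p = 0.0186). Each of the 3 passed the test without overlap between groups but stayed under a fold change of 2, and the highest and lowest libraries within a group differed by at most 1.26 times. With 1 library left out, the adjusted p of the 3 genes reached 0.0885, 0.0676 and 0.0835. Exons of Tnnc2 overlap those of Ube2c on the opposite strand over 74.0% of their length, so its counts are uncertain if the authors' counting ignored strand. The cardiac and embryonic troponin T gene, Tnnt2, was low at 4.52, 4.66 and 4.95 CPM against 2.91, 5.25 and 2.00 CPM, and its groups overlapped (adjusted p = 0.314).

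The fast tropomyosin gene had the largest positive log2 fold change of the 45 in edgeR's fit. Tpm1 encodes the alpha-tropomyosin of fast fibers, Tpm3 that of slow fibers, and Tpm2 the beta-tropomyosin found in both. Tpm1 (chr9:67022590-67049406, minus strand) had 6665, 7935 and 8645 CPM in labelled Ctrl 1, 2 and 3, against 19819.6, 18130.5 and 21064 CPM in labelled cKO 1, 2 and 3, a mean 2.54 times as high (log2 fold change 1.34 ± 0.16 SE, adjusted p = 0.00334). The groups did not overlap, and Tpm1 was called in all 6 fits that left out 1 library. Tpm2 had 10313, 9821 and 8394 CPM against 6593, 5699 and 6942 CPM, again without overlap, and passed the test at a fold change under 2 (-0.57 ± 0.15 SE, adjusted p = 0.0319), but in only 1 of the 6 fits that left out 1 library (adjusted p up to 0.104). Tpm3 had 1346, 769 and 550.1 CPM against 219.7, 430.3 and 57.4 CPM and did not pass (-1.91 ± 0.67 SE, adjusted p = 0.0786), with labelled cKO 2 at 7.50 times labelled cKO 3. Leaving out 1 library moved the log2 fold change of Tpm3 between -2.70 and -1.47, and it passed without labelled cKO 2 (adjusted p = 0.0316). These genes also make non-muscle forms in other cells and have near copies elsewhere in the genome, which the gene counts do not separate. Summed CPM of 10 smooth muscle and mural cell markers, cells that use Tpm1 and Tpm2 as well, was 695 to 718 among libraries labelled Ctrl, against 560 to 607 among those labelled cKO, and 4 of the 10 passed the test as higher in the libraries labelled Ctrl. The part of these cells in the levels of Tpm1 and Tpm2 was not tested.

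Within a library, the balance of the tropomyosins does not depend on scaling. Per kilobase of exon, Tpm1 stood at 0.290, 0.362 and 0.462 times Tpm2 in labelled Ctrl 1, 2 and 3 and at 1.35, 1.43 and 1.36 times Tpm2 in labelled cKO 1, 2 and 3. Per kilobase, Tpm2 thus exceeded Tpm1 in every library labelled Ctrl and Tpm1 exceeded Tpm2 in every library labelled cKO. Without division by exon length, Tpm1 was already the higher in labelled Ctrl 3 (316099 against 306919 counts). The log2 ratio differed by 1.92 between the groups (exact two-sided permutation p = 0.1, the smallest that 3 against 3 allows). The pair was chosen after its values were seen. As both genes had groups without overlap and differed in opposite directions, this p was fixed by the choice.

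Among the myosin light chains, the slow regulatory light chain and a minor slow essential light chain were lower in the libraries labelled cKO. Myl2, the regulatory light chain of slow and cardiac muscle (chr5:122100951-122113472, plus strand), had 1510.5, 822 and 751 CPM in labelled Ctrl 1, 2 and 3, against 176, 319 and 36.3 CPM in labelled cKO 1, 2 and 3 (log2 fold change -2.54 ± 0.71 SE, adjusted p = 0.0395). The groups did not overlap, but its call, like that of Tnnt1, was lost without any library labelled Ctrl or without labelled cKO 1 (adjusted p 0.0549 to 0.116). Its log2 fold change ran from -3.30 to -2.07 over the 6 fits that left out 1 library. Myl6b, a slow-type essential light chain that is also made outside muscle (chr10:128494157-128498685, minus strand), had 21.9, 20.9 and 11.8 CPM against 7.37, 7.74 and 7.18 CPM (-1.29 ± 0.23 SE, adjusted p = 0.00918). Its libraries labelled cKO lay within 1.08 times of each other, unlike those of the other slow genes, and it was called in all 6 fits that left out 1 library. Myl3, the main essential light chain of slow and ventricular muscle, had 955, 489 and 239 CPM against 263, 573 and 102 CPM, overlapped between groups and did not pass (-0.84 ± 0.67 SE, adjusted p = 0.391). Its log2 fold change was -0.22 without labelled Ctrl 1 and -1.64 without labelled cKO 2, and it passed in none of the 6 fits that left out 1 library.

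Both fast light chains had a higher mean level in the libraries labelled cKO, Mylpf past the test and Myl1 not. Mylpf, the fast regulatory light chain, had 4107, 5507 and 5623 CPM in labelled Ctrl 1, 2 and 3, against 8182, 6609 and 8303 CPM in labelled cKO 1, 2 and 3, and passed the test at a fold change under 2 (0.60 ± 0.17 SE, adjusted p = 0.0441). It did not pass with total counts (adjusted p = 0.0981), and passed in 2 of the 6 fits that left out 1 library (adjusted p up to 0.152). Myl1, the fast essential light chain, had 6462, 6622 and 8542 CPM against 9575, 7907 and 9591 CPM, overlapped and did not pass (0.32 ± 0.17 SE, adjusted p = 0.194). Myl4, the embryonic and atrial essential light chain, was low at 6.31, 4.68 and 6.07 CPM against 3.92, 12.3 and 5.29 CPM, with its highest value in labelled cKO 2. Its log2 fold change of 0.33 (adjusted p = 0.574) became -0.31 without that library. Several of the slow genes (Tnnc1, Myl2 and Myl3) are also heart genes. The 8 cardiac markers summed to 179 to 662 CPM among libraries labelled Ctrl, against 3.09 to 73.2 CPM among those labelled cKO. Of these, Myh6, the neighbor and close copy of Myh7, had 177 to 659 CPM against 0.25 to 71.3 CPM. Myl7, Mybpc3 and Nppb had at most 2 counts in any library, Tnni3 3 to 15, Nppa 5 to 16, Ryr2 9 to 27 and Hcn4 46 to 175. The part of cardiac cells in the levels of the slow genes was not tested.

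Myosin-binding protein C also had its slow form lower and its fast form higher in the libraries labelled cKO. Mybpc1, the slow form (chr10:88518279-88605152, minus strand), had 3268, 3079 and 2459 CPM in labelled Ctrl 1, 2 and 3, against 1352, 1969.6 and 1841 CPM in labelled cKO 1, 2 and 3 (log2 fold change -0.77 ± 0.18 SE, adjusted p = 0.0230). Mybpc2, the fast form (chr7:44501699-44524656, minus strand), had 2302, 3075 and 4442 CPM against 9110.3, 6468 and 8612 CPM (1.30 ± 0.26 SE, adjusted p = 0.0141). Neither gene's groups overlapped. Mybpc1 passed in 2 of the 6 fits that left out 1 library (adjusted p up to 0.0780). Mybpc2 lost its call without labelled Ctrl 2 (adjusted p = 0.0562) or labelled cKO 3 (adjusted p = 0.0509), at log2 fold changes of 1.26 and 1.24. Mybph, myosin-binding protein H, behaved unlike both. It had 108, 216 and 209.7 CPM against 388, 40.2 and 109 CPM, so that its highest and its lowest library were both labelled cKO and differed 9.65-fold. Its log2 fold change was 0.00585 ± 0.72 SE (adjusted p = 0.997) and became -1.27 without labelled cKO 1. Exons of Mybph overlap those of Adora1 over 49.9% of their length.

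The share of the slow form within each isoform pair, computed per kilobase of exon, does not depend on how libraries are scaled. For troponin I it was 5.72%, 2.66% and 2.70% in labelled Ctrl 1, 2 and 3, against 0.381%, 0.859% and 0.0555% in labelled cKO 1, 2 and 3. Without division by length the difference between the group means rose from 3.26 to 7.36 percentage points. For the regulatory light chain it was 16.7%, 7.52% and 6.78% against 1.16%, 2.56% and 0.237%, and the difference rose from 9.01 to 14.8 percentage points without division by length. For myosin-binding protein C it was 53.1%, 44.4% and 30.6% against 10.6%, 19.5% and 14.6%. In these 3 pairs every library labelled Ctrl had a higher slow share than every library labelled cKO. The same held for troponin T, at 6.65% ± 2.70 against 0.638% ± 0.573 (mean ± SD, n = 3 per group), for troponin C, at 6.04% ± 3.17 against 0.780% ± 0.704, and for alpha-tropomyosin, at 11.1% ± 5.89 against 1.31% ± 1.10. For each of these 6 pairs the exact two-sided permutation p was 0.1, the smallest that 3 against 3 allows. The essential light chain was the exception, at 7.59% ± 5.17 against 3.55% ± 2.98 with overlap between groups (exact permutation p = 0.2). In all, 7 pairs were compared.

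**Figure D3:**
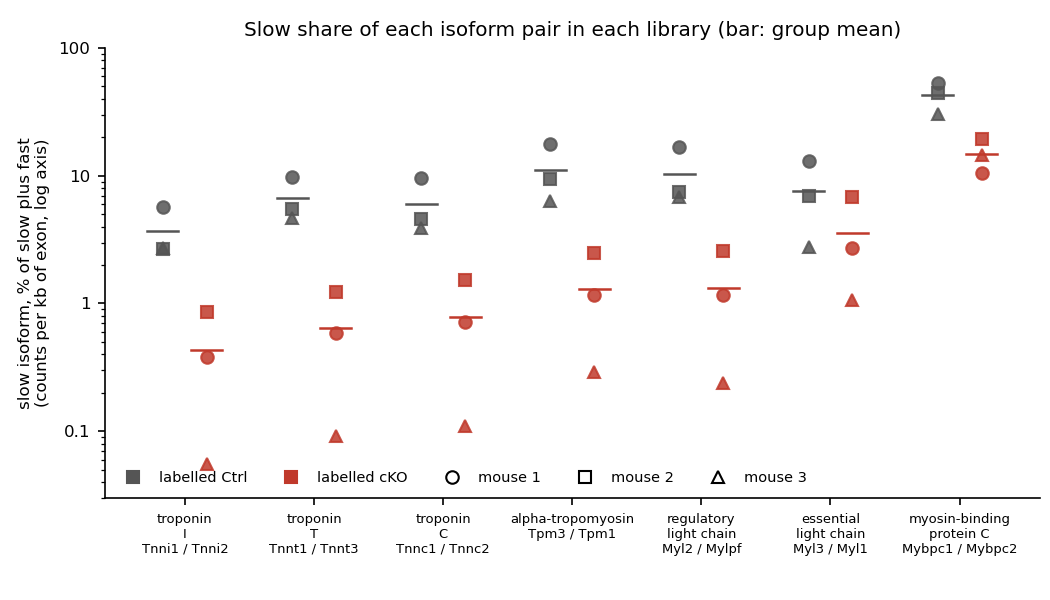
Share of the slow isoform in slow plus fast, in percent of counts per kilobase of exon on a log axis, for 7 isoform pairs (x axis), with 1 point per library (circle, square and triangle for mice 1, 2 and 3, grey for labelled Ctrl and red for labelled cKO) and bars at the group means. In 6 pairs all grey points lie above all red ones, and in the essential light chain pair they overlap; the red triangle, labelled cKO 3, is the lowest point in all pairs but myosin-binding protein C.

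Levels of some slow genes stayed in a narrow ratio to the slow myosin heavy chain across the libraries. Myh7 had 3676, 1723 and 2219 CPM in labelled Ctrl 1, 2 and 3, against 494, 974 and 75.3 CPM in labelled cKO 1, 2 and 3, a 48.8-fold range over the 6 (log2 fold change -2.30 ± 0.79 SE, adjusted p = 0.0742). Per count of Myh7, Tnni1 varied only 1.43-fold over the same libraries, between 0.153 and 0.220 counts. Myl2 varied 1.47-fold, Tnnc1 1.51-fold, Tnnt1 1.78-fold and Tpm3 3.07-fold. Over all 6 libraries, these ratios set the spread of the slow troponins and Myl2 apart from that of Myl3, whose count per Myh7 count varied 12.6-fold, Myl6b (18.0-fold) and Mybpc1 (27.5-fold). Myl3, Myl6b and Mybpc1 were highest per Myh7 count in labelled cKO 3, where Myh7 was lowest, at 1.36, 0.0954 and 24.4. In the remaining libraries they ran from 0.108 to 0.589, from 0.0053 to 0.0149 and from 0.889 to 2.73. Myom3 varied 5.10-fold, Ablim1 7.68-fold and Lmod2 11.8-fold, so over all 6 libraries these called genes did not follow Myh7 as closely, as the plot of the genes against Myh7 shows. Their ranges too rested largely on labelled cKO 3, at 0.737, 0.982 and 2.55 counts per Myh7 count. In the remaining libraries Myom3 ran from 0.144 to 0.335, Ablim1 from 0.128 to 0.422 and Lmod2 from 0.216 to 0.361. These are descriptions over 6 libraries that share mice between the genes compared.

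**Figure D4:**
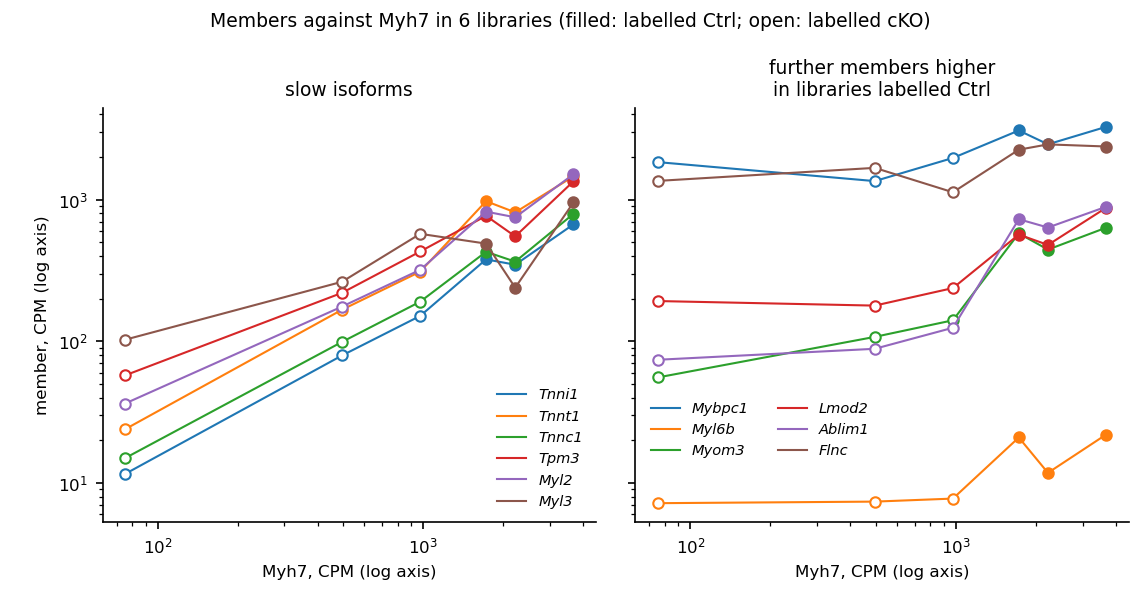
CPM of 12 genes (y axis, log) against CPM of Myh7 (x axis, log) in the 6 libraries, filled for labelled Ctrl and open for labelled cKO, with a line per gene. On the left, Tnni1, Tnnt1, Tnnc1 and Myl2 are lowest where Myh7 is lowest and highest where it is highest, but fall from labelled Ctrl 2 to labelled Ctrl 3, where Myh7 is higher; on the right, Ablim1, Lmod2 and Myom3 step up between the open and the filled points and change less within a group.

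Spread within the group labelled cKO was wide for 6 of the 8 slow isoforms and for Mybph, but not for Myl6b (1.08-fold between its highest and lowest library) or Mybpc1 (1.46-fold). Of the 43 sarcomere genes with a mean of at least 500 counts, 7 varied over 5-fold between the libraries labelled cKO (Tnni1, Tnnt1, Tnnc1, Tpm3, Myl2, Myl3 and Mybph). Among all 7348 genes of such counts, 27 did (0.367%), and the median gene varied 1.15-fold. The 7 slow-fiber markers that are not among the 45 genes summed to 6372 to 9757 CPM among libraries labelled Ctrl, against 475 to 2375 CPM among those labelled cKO, and 4 of the 7 passed the test as higher in the libraries labelled Ctrl. The 7 fast-fiber markers summed to 47790 to 78058 CPM against 119632 to 155288 CPM, so all 6 libraries carried the markers of fast skeletal muscle. Of these markers, 6 passed as higher in the libraries labelled cKO and 1, Myh1, as higher in those labelled Ctrl. The type IIa fast myosin heavy chain Myh2 was not on this list. It too was called as higher in the libraries labelled Ctrl (log2 fold change -1.23 ± 0.34 SE, adjusted p = 0.0392). That call held in 2 of the 6 fits that left out 1 library. The part of the number of slow fibers in each piece of muscle was not tested.

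At the M-band, where thick filaments are cross-linked in the middle of the sarcomere, the myomesins differed in opposite directions. Myom3, myomesin 3 (chr4:135759715-135815564, plus strand), had 634, 578 and 444 CPM in labelled Ctrl 1, 2 and 3, against 107, 141 and 55.5 CPM in labelled cKO 1, 2 and 3, a mean 5.46 times as high in the libraries labelled Ctrl (log2 fold change -2.45 ± 0.33 SE, adjusted p = 0.00442). The groups did not overlap, and the call held in all 6 fits that left out 1 library. Myom2, the M-protein of fast fibers, had 992, 1252 and 1327 CPM against 2677, 1631 and 2491 CPM and passed at a fold change just under 2 (0.93 ± 0.21 SE, adjusted p = 0.0204), though in 2 of the 6 fits that left out 1 library. Myom1, the general myomesin, overlapped between groups and did not pass (0.28 ± 0.14 SE, adjusted p = 0.196). Obsl1, obscurin-like 1, had 160.1, 200.4 and 137 CPM against 111, 69.2 and 84.1 CPM and passed as higher in the libraries labelled Ctrl (-0.91 ± 0.20 SE, adjusted p = 0.0196), and did so in 3 of those 6 fits. Per kilobase of exon, Myom2 stood at 1.07, 1.48 and 2.04 times Myom3 in labelled Ctrl 1, 2 and 3 and at 17.0, 7.92 and 30.6 times Myom3 in labelled cKO 1, 2 and 3. Myom2 was thus the higher of the pair in all 6 libraries, and far above Myom3 in the libraries labelled cKO. In labelled Ctrl 1 the pair was nearly level per kilobase, but not in counts (38837 against 24824).

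Both giant filament genes had a higher mean level in the libraries labelled cKO, past the test for nebulin alone. Ttn, titin, had 11642, 10689.5 and 12767 CPM in labelled Ctrl 1, 2 and 3, against 17670.5, 14137 and 16729 CPM in labelled cKO 1, 2 and 3, without overlap, and did not pass the test (0.47 ± 0.16 SE, adjusted p = 0.0685). Neb, nebulin, had 4676, 4518 and 5579 CPM against 7677, 6687 and 7483 CPM and passed (0.56 ± 0.14 SE, adjusted p = 0.0270), but not with total counts (adjusted p = 0.0748) and in only 2 of the 6 fits that left out 1 library. Neither reached a fold change of 2.

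At the Z-disc, Ablim1 stood far apart from the other 11 genes. Ablim1 encodes an actin-binding LIM protein (chr19:57032733-57314919, minus strand). It had 891, 727 and 635 CPM in labelled Ctrl 1, 2 and 3, against 88.4, 124 and 74.0 CPM in labelled cKO 1, 2 and 3, a mean 7.85 times as high in the libraries labelled Ctrl (log2 fold change -2.97 ± 0.23 SE, adjusted p = 0.000796). This was the largest difference of the 45 genes in edgeR's fit, and it was called in all 6 fits that left out 1 library, with log2 fold changes of -3.23 to -2.83. The deposited counts are per gene and do not show which of its several transcripts changed.

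With Ablim1, 4 of the 12 Z-disc genes passed the test as higher in the libraries labelled Ctrl (next to 11.8% of all genes tested) and 1 as higher in those labelled cKO (next to 12.6%), while 7 did not pass. Filamin C, Flnc, an actin cross-linker of the Z-disc and the membrane, had 2373, 2253 and 2456 CPM against 1676, 1127 and 1356 CPM in the same order (-0.77 ± 0.16 SE, adjusted p = 0.0149). Synpo2l, an actin-binding protein of the Z-disc, had 396, 455 and 395 CPM against 348, 249.7 and 283 CPM (-0.50 ± 0.14 SE, adjusted p = 0.0382) and passed in 1 of the 6 fits that left out 1 library. The groups of both genes did not overlap. The PDZ and LIM domain proteins, adaptors between the actin-binding protein alpha-actinin and signalling proteins, differed among themselves. Pdlim5 had 879, 771 and 652 CPM against 565, 515 and 509 CPM (-0.53 ± 0.13 SE, adjusted p = 0.0240) and passed in 2 of those 6 fits, whereas Pdlim7 had 158, 183 and 194 CPM against 342, 271 and 313 CPM (0.79 ± 0.12 SE, adjusted p = 0.00623) and passed in all 6. Per kilobase, Pdlim7 was below Pdlim5 in every library labelled Ctrl, at 0.328, 0.435 and 0.543 times its level. In the libraries labelled cKO it was close to Pdlim5 per kilobase, at 1.11, 0.964 and 1.13 times. Without division by exon length, Pdlim7 stayed below Pdlim5 there too (12128, 10436 and 13780 against 20032, 19825 and 22390 counts). Pdlim3 overlapped between groups and did not pass (0.14 ± 0.20 SE, adjusted p = 0.639).

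Several structural genes of the Z-disc did not pass the test. Desmin, Des, the intermediate filament that ties Z-discs together, had 5099, 5638 and 5119.5 CPM in labelled Ctrl 1, 2 and 3, against 6132, 3939.9 and 5218 CPM in labelled cKO 1, 2 and 3 (log2 fold change -0.05 ± 0.18 SE, adjusted p = 0.853). Tcap, telethonin, which caps titin at the Z-disc, had a log2 fold change of 0.05 ± 0.20 SE, adjusted p = 0.871, and Myot, myotilin, one of -0.08 ± 0.16 SE, adjusted p = 0.757. Values of all 3 overlapped between groups, as did those of Myoz3, a calsarcin (-0.11 ± 0.13 SE, adjusted p = 0.576). Ldb3 (-0.40 ± 0.14 SE, adjusted p = 0.0763) and Synpo2 (0.42 ± 0.14 SE, adjusted p = 0.0715) did not pass the test although their groups did not overlap.

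At the pointed end of the thin filament, the leiomodins, which lengthen the filament, were lower in the libraries labelled cKO and the cap tropomodulin 4 was higher. Lmod2 (chr6:24597762-24605414, plus strand), the leiomodin best known from the heart, had 876, 567 and 479 CPM in labelled Ctrl 1, 2 and 3, against 178, 237 and 192 CPM in labelled cKO 1, 2 and 3, a mean 3.16 times as high in the libraries labelled Ctrl (log2 fold change -1.66 ± 0.24 SE, adjusted p = 0.00509). Lmod3, the leiomodin of skeletal muscle, had 187, 192 and 171 CPM against 114, 124 and 133 CPM (-0.57 ± 0.09 SE, adjusted p = 0.00704). Tmod4, the skeletal tropomodulin, had 281, 296 and 323 CPM against 528, 464 and 523 CPM (0.75 ± 0.10 SE, adjusted p = 0.00395). None of the 3 overlapped between groups, and each kept its adjusted p under 0.05 in all 6 fits that left out 1 library. Per kilobase, Tmod4 was below Lmod2 in every library labelled Ctrl, at 0.368, 0.602 and 0.777 times its level, and above it in every library labelled cKO, at 3.40, 2.25 and 3.13 times. Tmod1 overlapped between groups and did not pass (0.43 ± 0.18 SE, adjusted p = 0.117), and its exons overlap those of Tstd2 over 32.6% of their length.

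Of the assembly and accessory genes, Cmya5 alone passed the test. Cmya5 encodes myospryn, a large desmin- and titin-binding protein (chr13:93040713-93144724, minus strand). It had 2049.9, 2022 and 2216 CPM in labelled Ctrl 1, 2 and 3, against 4902, 3612 and 4322 CPM in labelled cKO 1, 2 and 3, a mean 2.04 times as high (log2 fold change 1.03 ± 0.14 SE, adjusted p = 0.00477). Its fold change lay just over the limit of 2, and it fell under it with total counts (log2 fold change 0.77) or without labelled cKO 1 (0.91), with the adjusted p staying under 0.05. Antisense transcripts overlap its exons over 21.7% of their length. Smyd1, a methyltransferase needed for sarcomere assembly (0.14 ± 0.18 SE, adjusted p = 0.593), Nrap, a scaffold of assembling myofibrils (-0.12 ± 0.15 SE, adjusted p = 0.594), and Murc, also called cavin 4, a protein of the muscle membrane (0.11 ± 0.13 SE, adjusted p = 0.577), overlapped between groups and did not pass.

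**Figure D5:**
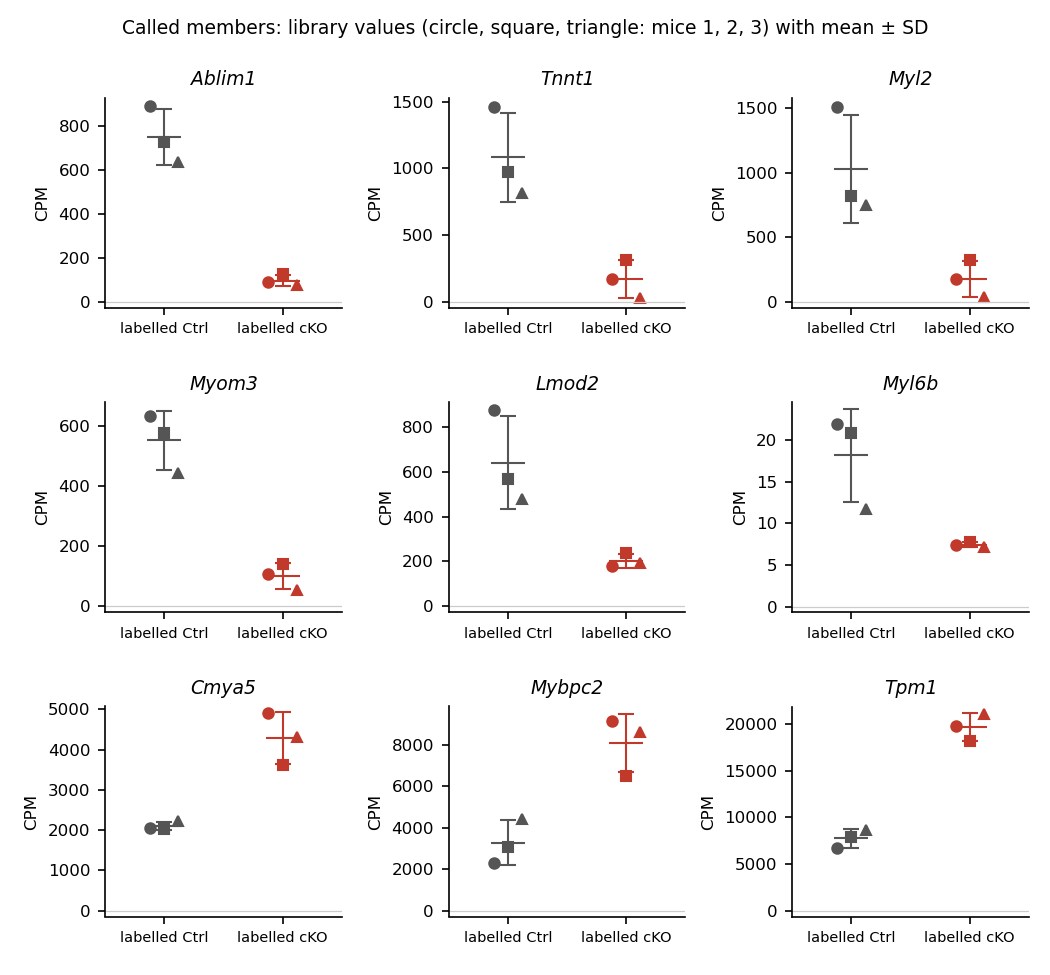
CPM in each library of the 9 genes called at a fold change over 2 and an adjusted p under 0.05, 1 panel per gene, with circles, squares and triangles for mice 1, 2 and 3 of each labelled group (grey Ctrl, red cKO) and the mean with SD as a bar. In all 9 panels the groups do not overlap; the red points of Tnnt1 and Myl2 spread from near 0 to above 300 CPM, while those of Ablim1, Lmod2 and Myl6b lie close together.

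Markers of other cells and states also differed between the groups. Summed CPM of 8 immune markers was 221 to 301 among libraries labelled Ctrl, against 93.7 to 139 among those labelled cKO, and 6 of the 8 passed as higher in the libraries labelled Ctrl. The 7 measured markers of developing or regenerating fibers summed to 286 to 359 CPM against 176 to 206 CPM. Of these, 3 (Myh3, Myog and Ncam1) passed as higher in the libraries labelled Ctrl and 1, Myh8, as higher in those labelled cKO. The 6 fibroblast and progenitor markers summed to 1094 to 1307 CPM against 781 to 1318 CPM, with 2 passing as higher in the libraries labelled Ctrl. No marker of these lists was at 0 in every library, and the part of these cells and states in the levels of Ablim1, Lmod2, Myom3, Myl6b and Flnc was not tested.

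Beyond the 45 genes, a second list of 43 sarcomere genes was fitted in the same model, of which 42 passed the filter on low counts. Of these, 5 were called as higher in the libraries labelled cKO (next to 2.13% of all genes tested). A further 10, with the type IIa fast heavy chain Myh2 among them, were called as higher in those labelled Ctrl (next to 3.92%). Those higher in the libraries labelled cKO included the myosin light chain kinases Mylk4 (2.33 ± 0.52 SE, adjusted p = 0.0194) and Mylk2 (2.02 ± 0.14 SE, adjusted p = 0.000627). The others higher there were fast alpha-actinin Actn3 (1.58 ± 0.33 SE, adjusted p = 0.0162), the type IIb fast myosin heavy chain Myh4 (1.46 ± 0.33 SE, adjusted p = 0.0213) and the ubiquitin ligase Trim63 (1.05 ± 0.29 SE, adjusted p = 0.0399). The myosin light chain kinases phosphorylate the regulatory light chain, whose fast form Mylpf was also higher there. With labelled cKO 1 or labelled cKO 3 left out, 1 gene of this list was called in that direction, with labelled Ctrl 1 or labelled Ctrl 2 left out, 3 were, and with labelled Ctrl 3 or labelled cKO 2 left out, 6 were. Mylk2 kept its call in all 6 of these fits, Mylk4 and Actn3 each lost theirs in 3 (adjusted p up to 0.0753 and 0.0616), Myh4 in 3 (up to 0.0764) and Trim63 in 4 (up to 0.119). Trim63 was also lost with total counts (adjusted p = 0.0541), the robust fit (0.0532) and glmTreat (0.0829). The strongest in the other direction were Csrp3, a Z-disc LIM protein (-2.62 ± 0.18 SE, adjusted p = 0.000627), the titin-binding repeat protein Ankrd1 (-2.29 ± 0.29 SE, adjusted p = 0.00369), the slow calsarcin Myoz2 (-2.16 ± 0.34 SE, adjusted p = 0.00700), the small heat shock protein Cryab (-2.14 ± 0.25 SE, adjusted p = 0.00326) and the nebulin relative Nebl (-1.92 ± 0.47 SE, adjusted p = 0.0268). Nebl was low, with 3 to 25 counts per library, and lost its call in 4 of the 6 fits that left out 1 library, those without labelled Ctrl 1, labelled Ctrl 2, labelled cKO 1 or labelled cKO 3 (adjusted p 0.0759 to 0.0940).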

How the data were processed

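RNA-Seq of GP muscle was analyzed from 3 libraries labelled Ctrl and 3 labelled cKO. Per the study's methods and the submitters' processing notes, the authors used FastQC 0.11.8 for read quality, Trimmomatic 0.39 for trimming and HISAT2 2.1.0 to map reads to mm10, and counted them per gene with featureCounts 1.6.2. The annotation and the use of strand in counting are not given in the sources used here. The deposited counts are whole numbers per gene without normalization, for 24421 genes, of which 95.8% were found by symbol in GENCODE M21 (GRCm38). Counts of replicate pairs differed by a chi-square of 31.3 to 107 per degree of freedom, so no library repeats another. Each library is 1 mouse.

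The test was edgeR's quasi-likelihood F test (version 4.0.16 in R 4.3.3) after filterByExpr and TMM scaling, with Benjamini-Hochberg adjustment over the 14180 genes kept. A call needed a fold change over 2 and an adjusted p under 0.05, as in the study, which used DESeq. The standard error of a log2 fold change is its size divided by the square root of F. DESeq2 1.42.0, other scalings and filters, a robust fit, glmTreat against a fold change of 1.2, the mouse number as a block and each library left out in turn were alternatives. Single values were set against each other with an exact permutation test (two-sided). Levels per kilobase used the merged exon length of each gene in GENCODE M21. Both count tests were first run on simulated data with known changes. Promoter windows came from RefSeq (GRCm38.p6).

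The 45 genes, the other lists and the tests were chosen with earlier results of these data known. Every one of the 45 could be named. Among the 45, library values are given for called genes, isoform pairs and genes whose call changed under an alternative. They are also given for Ttn, Des, Tnnt2, Myl4 and Mybph, which fall outside this rule. Of the second sarcomere list the 5 called genes with the largest absolute log2 fold change in each direction are named. The heavy chains Myh1, Myh2 and Myh7 of that list are named as well. Flnc, Pdlim5, Pdlim7, Tmod4, Lmod3 and the paralog ratios were picked after their values were seen.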

Additional observations from a re-analysis of the deposited data

How the results depend on the processing

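Of the single-gene log2 fold changes, the alternatives kept direction and side of the threshold in 781 cases, lost a call in 38, gained one in 41 and turned the sign in 19. Calls of Ablim1, Myom3, Lmod2, Myl6b and Tpm1 held under every alternative run. Without the fold change limit, calls numbered 11 (higher in libraries labelled cKO) and 13 (higher in libraries labelled Ctrl) among the 45 genes and 8 and 14 among the other sarcomere genes (next to 12.6% and 11.8% of all genes tested). With glmTreat, 7 of the 45 were called in each direction (next to 4.77% and 5.24% of all genes tested), losing Tnnt1 and Myl2. With total counts, 11 were called as higher in the libraries labelled Ctrl (next to 7.21%), gaining Tnni1, Tnnc1, Mybpc1, Obsl1 and Flnc, and Cmya5 was lost in the other direction. DESeq2's Wald test called 9 as higher in the libraries labelled Ctrl, gaining Tnni1, Tnnc1 and Tpm3 (next to 3.97% of all genes tested), and the robust fit called 4, losing Tnnt1 and Myl2 (next to 3.8%). Leaving out 1 library gave 2 to 4 of the 45 genes as higher in the libraries labelled cKO and 4 to 9 as higher in those labelled Ctrl (next to 1.2% to 2.69% and 2.75% to 4.75% of all genes tested), and 1 to 6 and 8 to 12 of the other sarcomere genes. Without division by exon length, the difference in slow share, labelled Ctrl minus labelled cKO, was 7.36 percentage points for troponin I and 14.8 for the regulatory light chain, in place of 3.26 and 9.01; this follows from the lengths assigned to each pair.

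The mouse numbers did not pair the libraries: same-numbered libraries had correlations of their deviations from the group mean of 0.084, -0.21 and -0.0020. With the mouse number as a replicate block, the 45 genes had 3 calls higher in the libraries labelled cKO and 7 higher in those labelled Ctrl (next to 1.66% and 3.16% of all genes tested), gaining Tpm3, and the other sarcomere genes had 3 and 11. Without the fold change limit, 5 and 10 of the 45 passed under the block (next to 6.54% and 6.85% of all genes tested).

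Signs turned for 10 of the 45 genes, of which none was called at any limit in the main test. Total counts gave a log2 fold change of -0.30 for Mybph, -0.21 for Tcap, -0.12 for Pdlim3, -0.13 for Smyd1 and -0.14 for Murc. Mybph was at -0.0026 with at least 10 counts in every library and at -0.58 with the replicate block. Leaving out 1 library gave -1.27 to 0.46 for Mybph, -0.31 to 0.61 for Myl4, -0.22 to 0.087 for Des, -0.13 to 0.20 for Tcap, -0.032 to 0.37 for Pdlim3, -0.19 to 0.030 for Myot, -0.23 to 0.0050 for Myoz3, -0.013 to 0.31 for Smyd1 and -0.22 to 0.0030 for Nrap. The causes were not tested. With 3 libraries a group, exact permutation tests cannot fall below 0.1, and the values of the rarest of the 45, Tnnt2 and Myl4 (2.0 to 12.3 CPM), rest on the fewest counts.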
